A study of Oryza sativa with 2 samples.

Results

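Jasmonic acid is a plant hormone made from membrane fatty acids on wounding and attack, and this account follows 5 rice (Oryza sativa) genes that carry the names of its synthesis enzymes. They are LOX1.1 (LOC4334049) and LOX5 (LOC4333823), of the lipoxygenases, AOS3 (LOC4328742) and AOS4 (LOC4328743), of the allene oxide synthases, and OPR12 (LOC107279821), of the oxophytodienoate reductases. They were picked by gene number among features of the probe annotation that name 1 gene. The choice was made with earlier results of these data known. Each of the 5 was found and had 1 probe, out of 15798 genes measured.

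In the pathway a lipoxygenase adds oxygen to linolenic acid in the plastid, and allene oxide synthase, a cytochrome P450 of the CYP74 family, turns the product into an unstable allene oxide. Allene oxide cyclase closes the ring to oxophytodienoic acid, a reductase of the OPR family acts on that ring in the peroxisome, and beta-oxidation shortens the side chain to jasmonic acid. Plants often raise transcripts of these enzymes when they sense jasmonate, a positive feedback known best from Arabidopsis. Lipoxygenases that oxidise the 9-position, and many OPR enzymes, are not thought to feed this route, and a gene name alone does not say which kind it is.

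RNA of seedlings exposed to 5 µM jasmonic acid was set against RNA of control seedlings not exposed, 7 days old, on 2 two-colour oligonucleotide arrays. The labels name shoots in the titles and whole seedlings in the design text, and they describe treatment both as lasting 7 days and as given to plants of that age. On array 1 the exposed RNA carried Cy5 and the control RNA Cy3, and array 2 had the opposite labelling. The labels give the arrays a single replicate number, so they count as 1 replicate: no spread between plants was measured, no test was run, and every error below is the spread of the 2 arrays.

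Each array holds 1 deposited ratio for each of 22575 spots, given here on the log2 scale. The medians were −0.30 on array 1 and −0.32 on array 2. Gene names depend on reading the grid of spots transposed and turned, which no source states. Read that way, 0 of 228 control-like spots lay on a feature with a gene, against 194 by the spot numbers as deposited. Of all 22575 spots, 17839 had exactly 1 gene. The labels do not say what the numerator is. If it is Cy5 on both arrays, a transcript higher in exposed seedlings has a ratio above 1 on array 1 and below 1 on array 2; if it is Cy3, the reverse holds; if it is the exposed RNA on both, the arrays should go the same way. Values are therefore given for each array, with no settled direction. The plain mean is their average, and the swap mean averages them after the sign of array 2 is turned. The swap mean changes sign if the numerator is Cy3. It measures dye effects and not the treatment if both columns are exposed over control.

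AOS4 had the largest swap mean of the 5 genes, with ratios on opposite sides of 1 on the exchanged arrays. Its deposited ratio was 61/31 on array 1 and 53/141 on array 2, in lowest terms, or 0.98 and −1.41 on the log2 scale. The swap mean was 1.19 ± 0.31 (SD of 2 arrays), a size of 2.29-fold. Array 1 thus stood just under 2-fold and array 2 beyond it, so by the deposited values AOS4 was not at least 2-fold on both. After the median of each array was subtracted, the log2 ratios were 1.28 and −1.09, and AOS4 passed 2-fold on both arrays, above 1 on array 1 and below 1 on array 2, which is called the array 1 side here. Of all genes 0.551% lay there after centring. Among the 15798 genes its ratio was the 95th highest on array 1 and the 442nd lowest on array 2, and by the size of its centred swap mean it ranked 114th.

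AOS3, which lies next to AOS4 in gene order, did not share this pattern. Its ratio was 8/17 on array 1 and 16/37 on array 2, or −1.09 and −1.21 on the log2 scale, below 1 on both. The swap mean was 0.06 ± 1.62 (SD of 2 arrays) and the plain mean −1.15. Of the 5 genes only AOS3 lay 2-fold or more below 1 on each array, as did 3.85% of all genes. After centring it had −0.79 and −0.89 and did not, against 1.16% of all genes, and relative to spots of like brightness (described next) it did not either, against 0.133%.

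**Figure D1:**
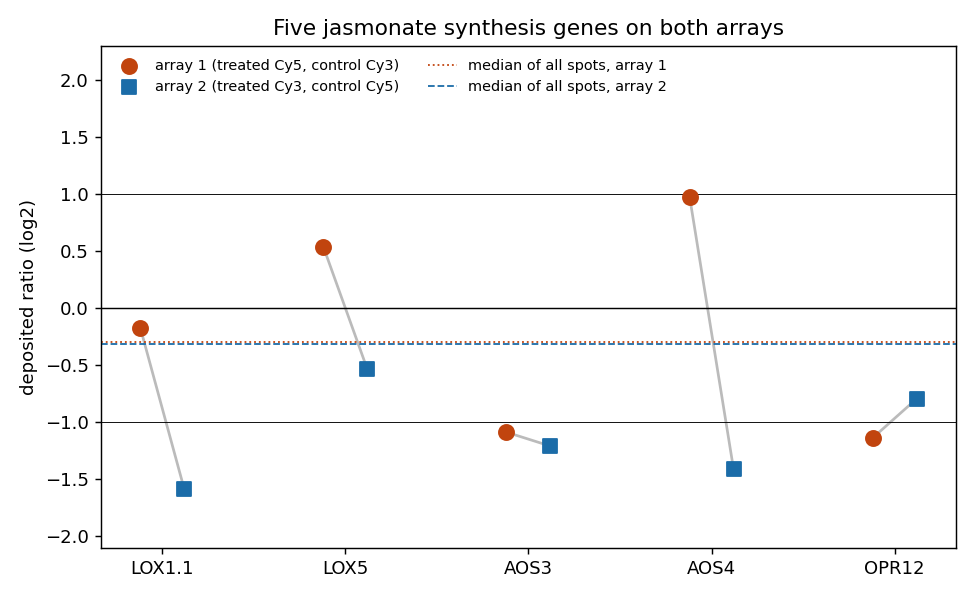
Deposited log2 ratios of the 5 genes (vertical axis) on array 1 (circles) and array 2 (squares), with the medians of all spots as broken lines and 2-fold as thin solid lines. AOS4 spans 0.98 to −1.41, while AOS3 has −1.09 and −1.21, so that its points lie together below 1.

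On array 1 the difference AOS4 minus AOS3 was 2.06 (log2), or 4.18-fold. On array 2 it was −0.20, or 1.15-fold. With array 2 turned, the difference averaged 1.13 ± 1.32 (SD of 2 arrays), so by the deposited values it was within the spread of the arrays. Because array 2 is turned, an offset that both arrays share enters this SD. The copies separated on array 1 and lay close together on array 2. Both copies are listed as CYP74A members (CYP74A4 and CYP74A3), and how far their probes can tell the 2 transcripts apart was not tested.

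Spot brightness differed between the copies and bears on how their ratios read. Brightness is taken here as the log2 geometric mean of the reduced numerator and denominator, averaged over the arrays, which is a lower bound on signal. AOS4 had a brightness of 5.94 and was brighter than 60.4% of genes, and AOS3 had 4.07 and was brighter than 21.5%. Spots dim by this measure tended to have ratios below 1 on both arrays. In the dimmest of 4 equal groups 23.8% of spots were at least 2-fold lower on both. In the next group, which begins at 4.05 and holds AOS3, 2.42% were. Control-like spots were left out of these shares. Brightness and ratio come from the same terms, so a ratio of small terms counts as dim whatever its signal. Relative to the median of the 1000 probes nearest in brightness rank, AOS3 had −0.59 and −0.65, and AOS4 had 1.16 and −1.20. For the very dimmest and brightest spots this set was cut short and held fewer than 1000 probes. Set against spots of like brightness, AOS4 was thus displaced by nearly equal amounts in opposite directions, with a swap mean of 1.18 ± 0.03 (SD of 2 arrays), on the array 1 side, which then held 0.614% of all genes. AOS4 minus AOS3 was then 1.15 ± 0.85 (SD of 2 arrays), with 1.75 on array 1 and −0.55 on array 2. Centred in this way, the difference was larger than the spread of the arrays, which rests on 2 values.

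**Figure D2:**
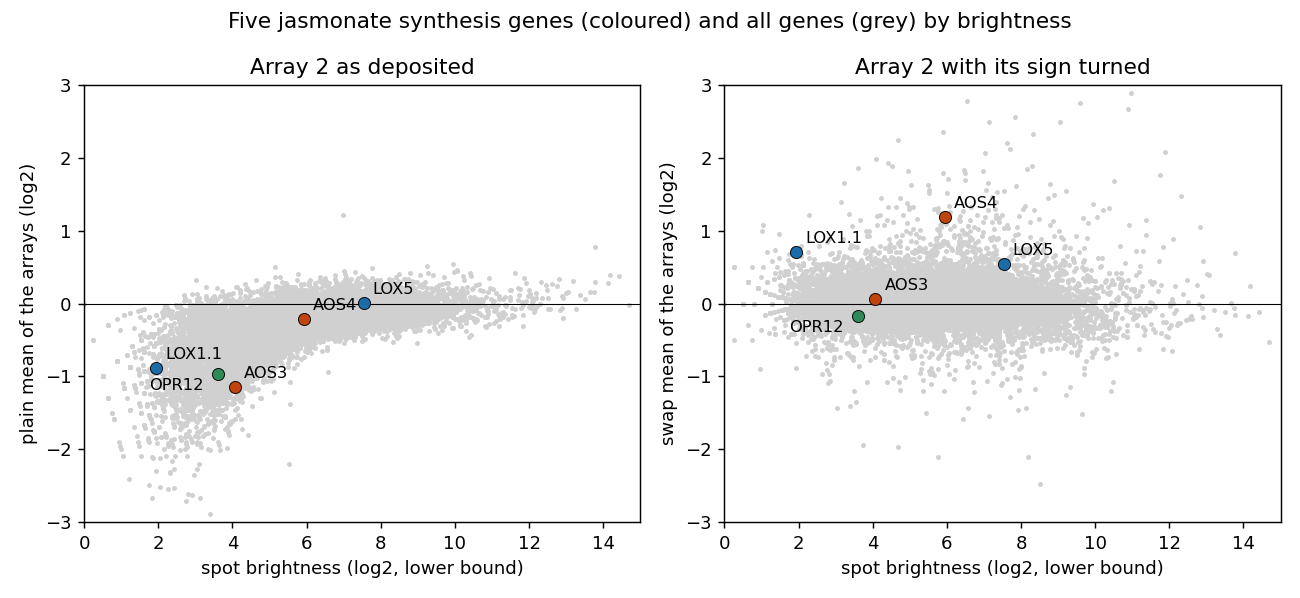
Spot brightness (horizontal axis, log2, lower bound) against the plain mean (left) and the swap mean (right), both log2, for all genes in grey (4 lie outside the right panel) and the 5 genes in colour. AOS4 stands at the upper edge of genes of its brightness in the right panel at 1.19, and AOS3, OPR12 and LOX1.1 lie in the low, wide part of the left panel with plain means of −1.15, −0.97 and −0.88.

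Among the 5544 spots of AOS4's brightness group that were not control-like, 36, itself included, had a swap mean at least as far from the group's median as AOS4. In that group the swap mean had a spread of 0.15 (scaled median absolute deviation) and the plain mean 0.16. For AOS3, 3936 of the 5617 spots of its group were as far out. By this measure AOS4 lay at the edge of the spots of its brightness and AOS3 among most of them.

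The other allene oxide synthases gave small values. AOS1 (LOC4334233, also named PRECOCIOUS), whose loss leaves rice short of jasmonate, had 0.07 and −0.19, and AOS2 (LOC4332121) had −0.24 and 0.06. Their swap means were 0.13 ± 0.09 and −0.15 ± 0.12 (SD of 2 arrays). The brightness of these spots was 6.05 and 6.61, close to that of AOS4. Of the 4 measured allene oxide synthases, then, AOS4 had the largest swap mean in size.

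LOX5 had the smallest spread between arrays of the 5 genes as deposited, but not after centring. The ratio was 106/73 on array 1 and 325/471 on array 2, or 0.54 and −0.54 on the log2 scale. These are equal in size and opposite in sign, and the swap mean was 0.54 ± 0.002 (SD of 2 arrays), or 1.45-fold. This SD rests on 2 values and on the scale: after centring the log2 ratios were 0.84 and −0.22, with an SD of 0.44, where AOS4 had 0.13. Centring by brightness gave 0.61 and −0.49, with an SD of 0.08, where AOS4 had 0.03. LOX5 had the brightest spot of the 5 genes, at 7.54, brighter than 86.9% of genes. Among the 5542 spots of the brightest group 424, or 7.65%, had a swap mean at least as far from the group's median.

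LOX1.1 had a swap mean of 0.71 that, by the deposited values, rested on array 2. The ratio was 8/9 on array 1 and 1/3 on array 2, or −0.17 and −1.58 on the log2 scale, a swap mean with an SD of 1.24. Both arrays lay below 1, and array 2 far below. The terms of these ratios are small and give a brightness of 1.94, above that of 1.51% of genes, though a ratio such as 1/3 can also come from larger numbers with a common factor. Centred by brightness, LOX1.1 had 0.83 and −0.58, a swap mean of 0.71 ± 0.17 (SD of 2 arrays). That centring raised both arrays by the same amount, so the swap mean did not change. The new sign on array 1 and the smaller SD come from this shift. The shift was set by other spots with ratios of small terms, so it adds no evidence from array 1. Among the 5644 spots of its group 112, or 1.98%, had a swap mean at least as far from the group's median. Taken as deposited, LOX5 minus LOX1.1 was 0.71 on array 1 and 1.05 on array 2, and with array 2 turned the difference was −0.17 ± 1.24 (SD of 2 arrays), within the spread of the arrays. Centred by brightness, the turned difference was −0.16 ± 0.09 (SD of 2 arrays), larger than that spread of 2 values. This smaller spread rests on the same shift of LOX1.1, so no difference between the 2 genes is drawn from it.

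The other lipoxygenases measured were LOX2 (LOC4331824), LOX3 (LOC4333818, also named r9-LOX1) and CM-LOX2 (LOC4345994, also named LOX9). LOX2 had 0.07 and 0.17, with a swap mean of −0.05. LOX3, which lies 6 protein-coding genes from LOX5, had −0.44 and −0.21, with a swap mean of −0.11. CM-LOX2 had −0.20 and −0.47, with a swap mean of 0.14. Of the 5 lipoxygenases measured, LOX1.1 and LOX5 had the largest swap means in size, with either sign. By the plain mean LOX1.1 was lowest at −0.88, and LOX5 at 0.001 lay below LOX2 at 0.12. LOX4, placed 2 protein-coding genes from LOX5, was not among the genes measured by features with 1 gene.

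OPR12 stood low on both arrays. Its ratio was 5/11 on array 1 and 15/26 on array 2, or −1.14 and −0.79 on the log2 scale. The swap mean was −0.17 ± 1.37 (SD of 2 arrays) and the plain mean −0.97. The spot was dim, with a brightness of 3.60, and centred by brightness it had −0.52 and −0.16. Among the 5644 spots of its group 1999 had a swap mean as far from the group's median. OPR12 thus passed 2-fold on array 1 only.

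The 6 other OPR genes ranged in swap mean from −0.28 for OPR6 (LOC4340484) to 0.49 for OPR7 (LOC4345762). OPR7 is the reductase linked to jasmonic acid synthesis in rice. It had 0.52 on array 1 and −0.45 on array 2, with an SD of 0.05 between the arrays, on a bright spot of 8.10. This lies beside LOX5, with 0.54 and −0.54, and far from OPR12. OPR6 had −0.38 and 0.19, the opposite order. OPR1 (LOC4340490) had −0.03 and 0.12, OPR4 (LOC4340486) −0.52 and −0.75, OPR5 (LOC4340485) −0.06 and −0.08, and OPR8 (LOC4329684) −0.17 and −0.31. Several OPR numbers are shared between genes in the reference table, OPR5 also being listed for OPR12, so the gene numbers identify them.

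**Figure D3:**
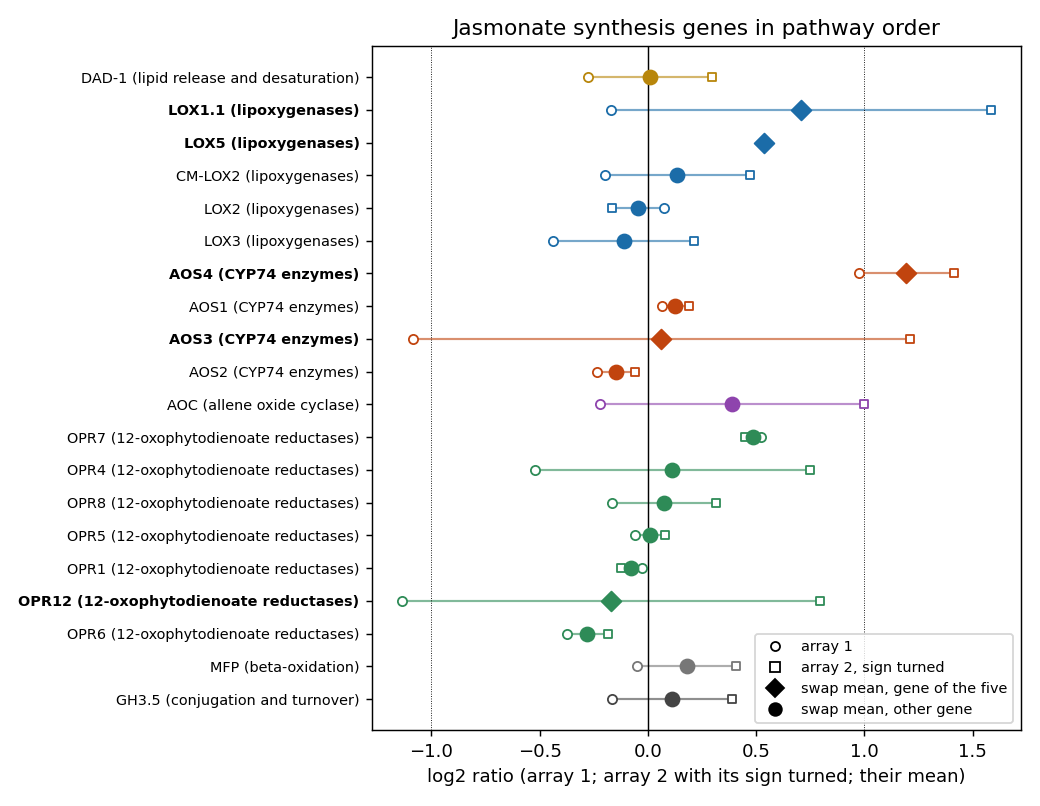
Genes of jasmonate synthesis and conjugation down the page in pathway order, with the log2 ratio of array 1 (open circles), of array 2 with its sign turned (open squares) and their mean (filled, diamonds for the 5 genes). AOS4 is the gene with both open marks near 1 or above, at 0.98 and 1.41. LOX5 and OPR7 follow with closely placed marks near 0.5. AOS3, OPR12, LOX1.1 and several of the other genes have marks on either side of 0.

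The remaining steps were thinly covered. Allene oxide cyclase (AOC, LOC4333201, also named CPM2), known in rice from mutants that lack jasmonate, had −0.22 and −1, a swap mean of 0.39 ± 0.86 (SD of 2 arrays) on a spot of brightness 1.60. MFP (LOC4328997), a multifunctional protein of beta-oxidation, had −0.05 and −0.41 over 2 probes. GH3.5 (LOC4339756, also named JAR1), which joins jasmonic acid to isoleucine to form the active hormone, had −0.17 and −0.39. DAD-1 (LOC4335701) entered by a symbol that a lipase of jasmonate synthesis shares with a defender against cell death, and had −0.28 and −0.30.

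By count, the 5 genes gave 0 members on the array 1 side (at least 2-fold above 1 on array 1 and 2-fold below 1 on array 2), where 0.5% of all genes lay. The array 2 side, the opposite case, also held 0, where 0.165% of all genes lay. AOS3 alone was called lower on both (3.85% of all genes), and 0 were called higher on both, as for 0.0% of all genes. After centring AOS4 was on the array 1 side, with 0.551% of all genes. With 5 members, 1 call is too few to set against these shares.

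A looser count asks which genes lay above the array's median on array 1 and below it on array 2. LOX1.1, LOX5 and AOS4 did, which is 3 of the 5, where 19.1% of all genes did. The other 2, AOS3 and OPR12, lay below both medians, as did 29.0% of all genes. The median swap mean of the 5 genes was 0.54, against 0.01 over all genes, and the median plain mean −0.88, against −0.26. Because the 5 genes were chosen with earlier results of these data known, neither these medians nor the 3 of 5 is a test. In the 14 other genes of the synthesis lists 4 lay above and then below the median, 2 the other way (17.5% of all genes), and the median swap mean was 0.04. Of those 14, 0 were 2-fold or more away from 1 on each array. Over all genes 0.5% lay on the array 1 side, 0.165% on the array 2 side and 3.85% lower on both. With 14 genes, 0 calls is too few to set against these shares.

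**Figure D4:**
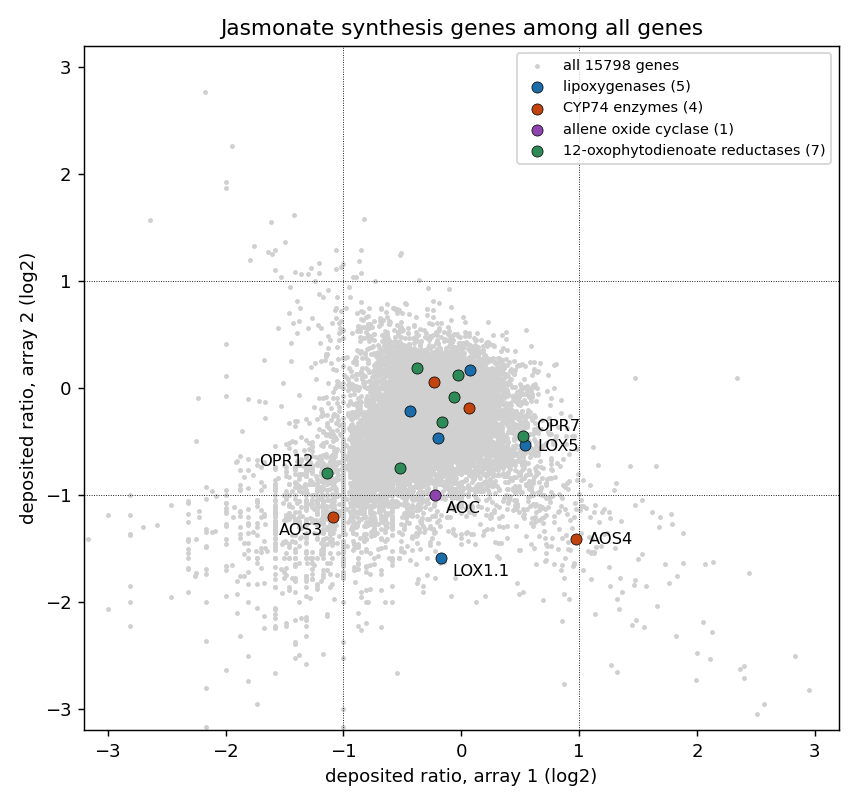
Deposited log2 ratios on array 1 (horizontal) and array 2 (vertical) for all genes (grey; 11 lie outside the axes) and for 4 steps of jasmonate synthesis (colours, number of genes in the legend), with 2-fold as dotted lines. AOS4, at 0.98 and −1.41, lies at the lower right edge of the cloud, LOX5 and OPR7 lie side by side nearer its centre, and AOS3 and OPR12 lie at lower left.

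Among 17 measured genes that perceive jasmonate or hold back its responses, a list set by symbols that also took in TIFY8, TIFY1A and TIFY2A, 2 were on the array 1 side, where 0.5% of all genes lay, and 1 was at least 2-fold lower on each array, where 3.85% lay. JAZ8 (LOC4347164), of the JAZ repressors, had 1.82 and −2.32, and JAZ7 (LOC4343899) 1.03 and −1.70. Both pairs have the order of AOS4, above 1 on array 1 and below 1 on array 2. The receptor COI1B (LOC4338955) had −0.06 and 0.00, and COI2 (LOC4332349) had −0.03 and −0.24. The lowest swap mean of the list was −0.11, for JAZ5 (LOC4335698), the gene called lower on each array, with −1.26 and −1.04. The list median was 0.11, and 15 of the 17 lay above the median of all genes.

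The named genes with a pair of ratios most like that of each member were found by the distance over the 2 log2 ratios, among 2104 other genes with a name. Nearest to AOS4 were CYP71P1 (distance 0.12), another cytochrome P450, with 0.90 and −1.50, DAHPS2 (0.18), with 0.83 and −1.31, and AT15 (0.20), with 0.95 and −1.21. LOX5 was nearest to CIPK29 (0.04), CML8 (0.06) and MT4A (0.07), all with array 1 between 0.53 and 0.56. AOS3 was nearest to LAC15 (0.01), AMY1.5 (0.07) and OsSWEET5 (0.09), and OPR12 to Cht6 and osysl11, each at 0.02, and GH3.11 (0.07). LOX1.1 was less closely matched, with BGLU26 at 0.15, AMT1-2 at 0.27 and BGLU1 at 0.28. Likeness over 2 arrays places genes side by side in the plot of both ratios and says no more.

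Genes beside the members in gene order were listed up to 3 protein-coding places away on each side, and those measured are given here. AOS3 and AOS4 are neighbours on 1 chromosome with no protein-coding gene between them. The gene beyond AOS4, LOC4328744, had −0.58 and −0.63, a swap mean of 0.02. Before AOS3, LOC4328739 had −0.38 and −0.69, a swap mean of 0.15, and LOC4328737 had −0.78 and −0.34, a swap mean of −0.22. These 3 swap means lay on both sides of 0, and each was smaller in size than that of AOS4.

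Around LOX5, LOC4333820 had a swap mean of −0.11, LOC4333824 0.03, LOC4333825 −0.005 and LOC4333826 −0.08. Around LOX1.1, LOC4334044 had a swap mean of −0.11, LOC4334045 0.16, LOC4334048 −0.03, LOC4334050 −0.19 and LOC4334054 −0.09. Each was smaller in size than the swap mean of the lipoxygenase gene it lies beside. The 1 measured neighbour of OPR12, LOC107275738, had a swap mean of 0.05.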

How the data were processed

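For each spot of each array the authors deposited a log10 ratio; they used a GenePix scanner with its software, and GeneSpring version 4 for normalization, per the labels. No source used here states a background correction or filter. The values are not centred. They were multiplied to the log2 scale, and the whole-number ratio behind each was taken as the fraction of smallest terms that matched it to 6e-10 (log10). The grid rule that pairs spots with the annotation was given with the genes. Control-like spots had a brightness over 4.5 and log2 ratios under −2.2 on each array. All 15798 genes matched the RefSeq table of assembly ASM3414082v1, used for names and gene order only. Genes with several probes took their mean. The 5 genes and the lists of other genes (matched by symbol or synonym alone; the table has no descriptions) were chosen with earlier results of these data known. Every member is named, as are the list genes of synthesis, the extremes and calls of the perception list, COI1B and COI2 (added after their values were seen), the 3 nearest named genes and measured neighbours. Functions were tested on simulated data. Calling and centring were tested there only on spots brighter than those of the 5 genes. Python 3.11.15, numpy 2.4.6 and pandas 2.3.3 were used. With 1 replicate no p-value was computed.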

Additional observations from a re-analysis of the deposited data

How the results depend on the processing

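Centring, scaling, other thresholds, single arrays and spot numbers were tried, and centring by brightness was added after seeing the data. Of the members, 0 on the array 1 side became 1 (AOS4) when centred, centred and scaled, centred by brightness or at 1.5-fold, and 3 with array 2 alone. On the array 2 side 0 became 2 with array 1 alone. The 1 lower on both (AOS3) became 0 when centred, scaled, centred by brightness or at 3-fold, 2 at 1.5-fold or with array 1 alone, and 3 with array 2 alone; by spot number it was 1, but AOS4 in place of AOS3. AOS4 minus AOS3, 1.13, was 1.13 to 1.17 under centring and scaling, 2.06 with array 1 alone, 0.20 with array 2 alone and, by spot number, 0.04. The AOS4 swap mean turned round to −0.22 as a plain mean and to −0.0352 by spot number; it was 0.98 to 1.41 otherwise. A single array drops the condition on the other, so more genes can pass. Shares of all genes at 1.5-fold, at 3-fold, after scaling or on a single array were not counted. The member counts under those settings therefore cannot be set against all genes. Dim spots limit LOX1.1, OPR12 and AOS3. No paired analysis was possible because there is only 1 replicate.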
